A study of Homo sapiens with 4 samples.

Results

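The aryl hydrocarbon receptor (AHR) pathway was examined in RNA-seq data of untreated HaCaT keratinocytes through 8 genes chosen by name, the receptor AHR, its partner ARNT, the repressor AHRR, and the target genes CYP1A1, CYP1A2, CYP1B1, TIPARP and ALDH3A1. Each gene had 1 row among the 44591 rows of the deposited tables and among the 19233 rows marked as protein-coding. HaCaT is a line of human skin keratinocytes that became immortal spontaneously. The 4 libraries, described as biological repeats of 1 line and 1 condition, came from cells kept in Dulbecco's modified Eagle medium at 37 °C and 5% CO2, with 12% fetal bovine serum by the sample labels, and received no treatment. The study's methods give another serum level than the labels. No library was exposed to resveratrol (RSV), the compound of the study and a known antagonist of this receptor, or to radiation, so no comparison between conditions was possible and all values below describe the resting line. Whether the repeats came from separate cultures is not given in the labels, and the spread between them may be partly technical.

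AHR is a ligand-activated transcription factor of the bHLH-PAS family that waits in the cytoplasm in a complex with HSP90 and co-chaperones. On binding dioxin, polycyclic hydrocarbons or indoles made from tryptophan it enters the nucleus, pairs with ARNT and binds DNA at the xenobiotic response element, whose core letters are GCGTG. Its targets include drug-metabolising enzymes and its own brakes, AHRR and TIPARP, and in skin the receptor is known for its part in chloracne, in the response to ultraviolet light and in barrier formation.

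The upstream sequences of 3 members are shown because their transcripts were at different levels in these cells while 2 of them are close relatives on chromosome 15. Each run is the 250 bases before the RefSeq transcription start in GRCh38.p14, read 5′ to 3′ on the gene's strand, and capitals mark GCGTG or its reverse complement CACGC, and the TATA letters TATAAA on the gene's strand. CYP1A1 lies at chr15:74725529-74725778 on the minus strand, CYP1A2 at chr15:74748595-74748844 on the plus strand and the first of the AHRR windows at chr5:321464-321713 on the plus strand.
CYP1A1: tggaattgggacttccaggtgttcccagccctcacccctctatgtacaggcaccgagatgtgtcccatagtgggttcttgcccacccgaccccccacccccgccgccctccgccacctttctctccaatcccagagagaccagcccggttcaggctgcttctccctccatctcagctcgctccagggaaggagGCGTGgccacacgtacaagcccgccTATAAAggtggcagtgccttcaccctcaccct
CYP1A2: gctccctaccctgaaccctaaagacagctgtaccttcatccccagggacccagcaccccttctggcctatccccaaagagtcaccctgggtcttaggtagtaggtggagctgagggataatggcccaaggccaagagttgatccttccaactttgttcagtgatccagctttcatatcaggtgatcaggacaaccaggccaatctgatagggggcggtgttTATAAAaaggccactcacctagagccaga
AHRR: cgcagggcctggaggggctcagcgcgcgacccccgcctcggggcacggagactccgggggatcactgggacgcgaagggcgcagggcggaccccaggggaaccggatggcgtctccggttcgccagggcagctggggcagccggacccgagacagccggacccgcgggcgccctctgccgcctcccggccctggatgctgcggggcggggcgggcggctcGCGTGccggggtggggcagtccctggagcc

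In CYP1A1 the GCGTG letters began 57 bases before the start and TATAAA 32 bases before it. The CYP1A2 run held TATAAA 29 bases before the start and no GCGTG on either strand. The AHRR run held GCGTG 30 bases before the start, within the longer form TNGCGTG, and no TATAAA. The RefSeq table matched 6 of the 8 members with 9 windows in all, and not CYP1B1 or ALDH3A1. GCGTG was found in 4 of the 9 windows, in AHRR, CYP1A1 and TIPARP, against 32.2% of all 35116 windows of this length. TNGCGTG, which contains GCGTG, was found in 1 of the 9 windows, against 4.52% of all windows, and TATAAA in 2, against 6.80%. A match of letters is a description of the window and not a binding site, and elements farther upstream were not searched.

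The libraries differed in make-up before any gene is considered. Total counts were 73082279 in replicate 1 and 17056035 to 19745170 in replicates 2 to 4, and protein-coding rows took 76.1% of the counts of replicate 1 and 95.3% to 96.4% of the others. Levels are therefore given as TPM, the counts per base of gene length scaled to the same total in each library, computed over protein-coding rows alone. Across 12165 genes with a mean TPM above 1, called detected here, replicate 1 correlated with each other library at a Spearman coefficient of 0.754 to 0.780, while pairs of replicates 2, 3 and 4 reached 0.944 to 0.967, so replicate 1 stood apart and results are given with and without it. In TPM over all rows the median gene of replicate 1 was 1.27 below the other replicates on the log2 scale, against 0.03 above them in TPM over protein-coding rows. All 6 keratinocyte markers examined, KRT5, KRT14, TP63, CDH1, DSG3 and SFN, were detected, with a summed TPM of 10684 to 13992. Of the markers of other cells, 2 of 7 for fibroblasts (COL1A1 and LUM), 1 of 5 for melanocytes (PMEL), 1 of 5 for immune cells (CD14) and 0 of 3 each for endothelial cells and hepatocytes had a mean TPM above 1. Their summed TPM was 5.20 to 9.70, 1.36 to 3.73, 3.51 to 8.92, 0.859 to 2.36 and 0 to 0.977 in that order, and TYR, PECAM1 and TTR had a count of 0 in every replicate. The part of other cells in the levels of the pathway genes was not tested.

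Of the 8 genes, 7 were detected, and 63.3% of all protein-coding rows were. ALDH3A1 led in each of the 4 replicates, AHRR was seventh in each, and CYP1A2 had a count of 0 in each. Between them stood TIPARP, CYP1B1, AHR, ARNT and CYP1A1, in that order of mean TPM. The median mean TPM over all detected genes was 24.5, which AHR, ARNT, CYP1B1, TIPARP and ALDH3A1 exceeded and CYP1A1 and AHRR did not.

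**Figure D1:**
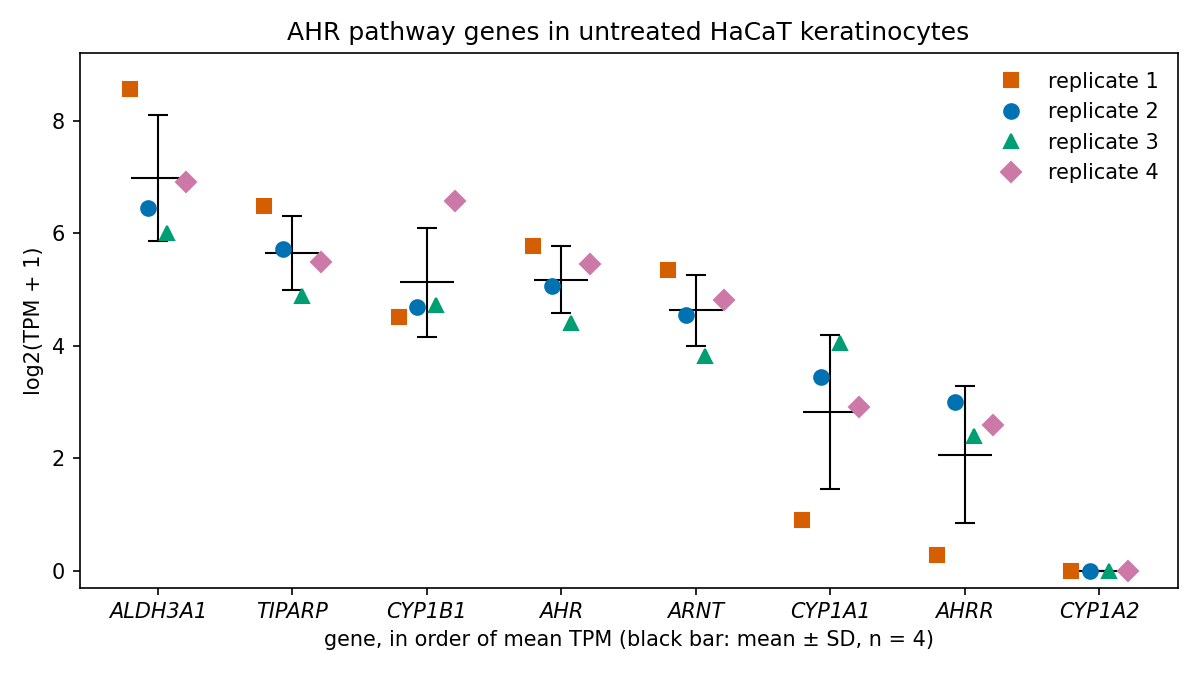
Level of each gene as log2(TPM + 1), with genes on the horizontal axis in order of mean TPM, a marker for each of the 4 replicates and a black bar for the mean ± SD. Replicate 1 is the highest for ALDH3A1 (378.5 TPM) and the lowest for CYP1A1 (0.858 TPM) and AHRR (0.211 TPM), while CYP1A2 is at 0 in all 4.

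The mean of the receptor stood above the median of the detected genes and that of its partner close to it. AHR (hg19, chromosome 7, 17338276 to 17385775, plus strand) had 53.7, 32.5, 20.04 and 42.8 TPM in replicates 1 to 4, from 8148, 1349, 1125 and 1991 counts, and averaged 37.2 ± 14.4 (SD, n = 4). Its mean stood at percentile 63.1 of the detected genes. ARNT (chromosome 1, 150782181 to 150849244, minus strand), the nuclear protein that AHR needs to bind DNA and that also serves the hypoxia factors, had 39.4, 22.5, 13.0 and 27.0 TPM, a mean of 25.5 ± 11.0 (SD, n = 4). The mean of ARNT stood at percentile 51.4 and was 20.8 without replicate 1. Replicate 1 was highest and replicate 3 lowest for both genes, and the ranges of AHR and ARNT over replicates overlapped. In TPM over all rows replicate 4 was the highest for both, so the place of replicate 1 depends on the scaling.

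Within each replicate AHR was above ARNT. On the log2(TPM + 1) scale, which understates differences of low genes, the difference was 0.44, 0.51, 0.58 and 0.65 in replicates 1 to 4 and averaged 0.54 ± 0.09 (SD, n = 4), larger than its spread. An exact permutation test in which signs were flipped, two-sided, gave p = 0.125, the smallest that 4 replicates allow, and the adjusted value over the 2 planned differences was also 0.125. The difference depends on the gene length, and with the exons of coding transcripts in GENCODE release 29 (7666 bases for AHR in place of 6247, and 4943 for ARNT in both) it was 0.26 ± 0.09 (SD, n = 4), still positive in every replicate.

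The ratio of the partner to the receptor changed little. ARNT had 0.734 times the reads per kilobase of AHR in replicate 1 (95% Clopper-Pearson interval 0.708 to 0.761), 0.691 (interval 0.631 to 0.757) in replicate 2, 0.650 (interval 0.587 to 0.720) in replicate 3 and 0.631 (interval 0.584 to 0.681) in replicate 4. All such intervals, and the floors for a count of 0, cover counting error alone, because PCR copies of a molecule cannot be told from separate molecules here. The intervals of replicates 1 and 4 did not overlap, while those of replicates 2, 3 and 4 did. The highest ratio was 1.16 times the lowest, against a median of 3.04 for the ratios of all detected genes to AHR, and 0.411% of detected genes had a less variable ratio. This is a description over 4 libraries, of which replicate 1 differs from the rest in depth and in base composition effects. It does not depend on how the libraries are scaled, but the ratio was not corrected for GC content.

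AHRR (chromosome 5, 304291 to 438406, plus strand) encodes the repressor that competes with AHR for ARNT. It had 0.211, 6.99, 4.23 and 5.03 TPM in replicates 1 to 4, from 29, 263, 215 and 212 counts, a mean of 4.11 ± 2.85 (SD, n = 4). Replicate 1 lay far below the other 3, whose mean was 5.41 ± 1.42 (SD, n = 3). Relative to AHR, AHRR was at 0.00393 in replicate 1 (95% Clopper-Pearson interval 0.00263 to 0.00565), 0.215 (interval 0.188 to 0.246) in replicate 2, 0.211 (interval 0.181 to 0.244) in replicate 3 and 0.118 (interval 0.102 to 0.135) in replicate 4. The ratios of replicates 2 and 3 agreed within counting error, and replicate 4 was lower than both. The first 10799 bases of the AHRR locus overlap PDCD6 on the same strand, a calcium-binding protein gene with 112.6, 65.2, 82.3 and 65.2 TPM, so how the authors' counting treated shared reads could alter AHRR. That part was not tested.

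CYP1A1, CYP1A2 and CYP1B1 encode the xenobiotic-metabolising cytochrome enzymes of the CYP1 family. CYP1A1 (chromosome 15, 75011883 to 75017951, minus strand), the gene most often read as a gauge of receptor activity, had 0.858, 9.86, 15.6 and 6.50 TPM in replicates 1 to 4, from 56, 176, 377 and 130 counts. Its mean was 8.21 ± 6.18 (SD, n = 4), at percentile 23.2 of the detected genes, and 10.7 ± 4.61 (SD, n = 3) without replicate 1. The 4 values were spread over 18.2-fold, and over 2.40-fold among replicates 2 to 4. Relative to AHR it was at 0.0160 in replicate 1 (95% Clopper-Pearson interval 0.0121 to 0.0208), 0.304 (interval 0.258 to 0.355) in replicate 2, 0.780 (interval 0.692 to 0.877) in replicate 3 and 0.152 (interval 0.126 to 0.181) in replicate 4. No 2 of these intervals overlapped, so the ratio differed between every pair of libraries beyond counting error.

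CYP1A2 (chromosome 15, 75041184 to 75048941, plus strand), the family member best known from liver, lies beside CYP1A1 in opposite orientation and had a count of 0 in all 4 replicates. A count of 0 allows up to 3 counts per library, which is 0.0395 TPM for replicate 1 and between 0.107 and 0.144 TPM for the rest. Against this floor in each library, CYP1A1 was at least 21.7-fold higher in replicate 1, 68.3-fold in replicate 2, 146-fold in replicate 3 and 50.5-fold in replicate 4. It was among 2739 protein-coding rows at 0 in every replicate. Of 2636 windows of 50 bases in the longest coding transcript of CYP1A1 in GENCODE, 0 occurred in that of CYP1A2, so long stretches of identical sequence do not tie the counts of the 2 genes together.

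CYP1B1 (chromosome 2, 38294746 to 38303323, minus strand), the family member typical of tissues outside the liver, had 21.9, 24.8, 25.3 and 94.2 TPM in replicates 1 to 4, from 2738, 850, 1170 and 3615 counts. Replicates 2 and 3 lay close together and replicate 4 was 3.79 times as high as replicate 2, while replicate 1 was near replicates 2 and 3 here but below them in TPM over all rows, at 6.77 against 22.0 and 22.1. The mean was 41.5 ± 35.1 (SD, n = 4). The fibroblast marker COL1A1, the highest of its list, was also highest in replicate 4, with 0.500, 4.92, 1.88 and 8.54 TPM. The other markers of that list, COL1A2, COL3A1, PDGFRB, LUM, DCN and THY1, were each higher in replicate 3 than in replicate 4. The summed TPM of the 7 fibroblast markers was 8.84 in replicate 3 and 9.70 in replicate 4, the latter mostly COL1A1. The part of fibroblast markers in CYP1B1 was not tested. For CYP1B1, replicate 4 was the highest in TPM over all rows and under median-of-ratios and upper quartile scaling as well. The ratio to AHR was 0.407 (95% Clopper-Pearson interval 0.390 to 0.425), 0.764 (0.700 to 0.833), 1.26 (1.16 to 1.37) and 2.20 (2.08 to 2.33) in replicates 1 to 4, with no overlap.

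CYP1B1 was above CYP1A1 in every replicate. The difference on the log2(TPM + 1) scale was 3.62, 1.25, 0.66 and 3.67 in replicates 1 to 4 and averaged 2.30 ± 1.57 (SD, n = 4). The exact permutation test by sign flips, two-sided, gave p = 0.125, and 0.125 adjusted over the 2 planned differences. Per kilobase, CYP1B1 had 25.5 times the reads of CYP1A1 in replicate 1 (95% Clopper-Pearson interval 19.6 to 33.8), 2.52 (interval 2.14 to 2.98) in replicate 2, 1.62 (interval 1.44 to 1.82) in replicate 3 and 14.5 (interval 12.2 to 17.4) in replicate 4. The wide gap came from a low CYP1A1 in replicate 1 and mainly from a high CYP1B1 in replicate 4. CYP1A1 in replicate 4, at 6.50 TPM, was also below replicates 2 and 3, at 9.86 and 15.6 TPM.

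TIPARP (chromosome 3, 156392205 to 156424559, plus strand) encodes PARP7, the mono-ADP-ribosyltransferase that curbs AHR. It had 87.9, 51.8, 28.5 and 43.7 TPM in replicates 1 to 4 and averaged 53.0 ± 25.2 (SD, n = 4). Its ratio to AHR was 1.64 (95% Clopper-Pearson interval 1.59 to 1.69), 1.60 (1.48 to 1.72), 1.42 (1.31 to 1.55) and 1.02 (0.955 to 1.09). The intervals of replicates 1 and 2 overlapped, as did those of replicates 2 and 3, and replicate 4 lay below all others. After ARNT this was the least variable ratio to AHR among the 6 detected members, with a highest value 1.60 times the lowest. The TIPARP locus overlaps TIPARP-AS1 on the opposite strand over 1298 bases, with 36 to 107 counts in the antisense gene. AHR and ALDH3A1 overlap unnamed antisense genes over 706 and 559 bases, with 35 to 70 and 0 to 12 counts. ARNT, CYP1A1, CYP1A2 and CYP1B1 overlap no other row among those searched, which left out tRNA rows. The strand setting of the counting is not given in the sources used here, so reads of overlapping genes cannot be told apart.

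ALDH3A1 (chromosome 17, 19641297 to 19651746, minus strand) encodes an aldehyde dehydrogenase that is abundant in cornea. It was the most abundant member, with 378.5, 86.2, 63.2 and 118.7 TPM in replicates 1 to 4 and a mean of 161.7 ± 146.3 (SD, n = 4), at percentile 91.8 of the detected genes. The mean was 89.4 ± 27.9 (SD, n = 3) without replicate 1, 89.8 in TPM over all rows and 93.1 with all annotated exons in GENCODE (3918 bases in place of 2257) as the length. Its ratio to AHR was 7.05 (95% Clopper-Pearson interval 6.87 to 7.24) in replicate 1, 2.65 (interval 2.46 to 2.87) in replicate 2, 3.16 (interval 2.91 to 3.42) in replicate 3 and 2.77 (interval 2.61 to 2.95) in replicate 4. Among replicates 2 to 4 the ratio varied 1.19-fold, less than that of any other detected member except ARNT (1.10-fold).

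**Figure D2:**
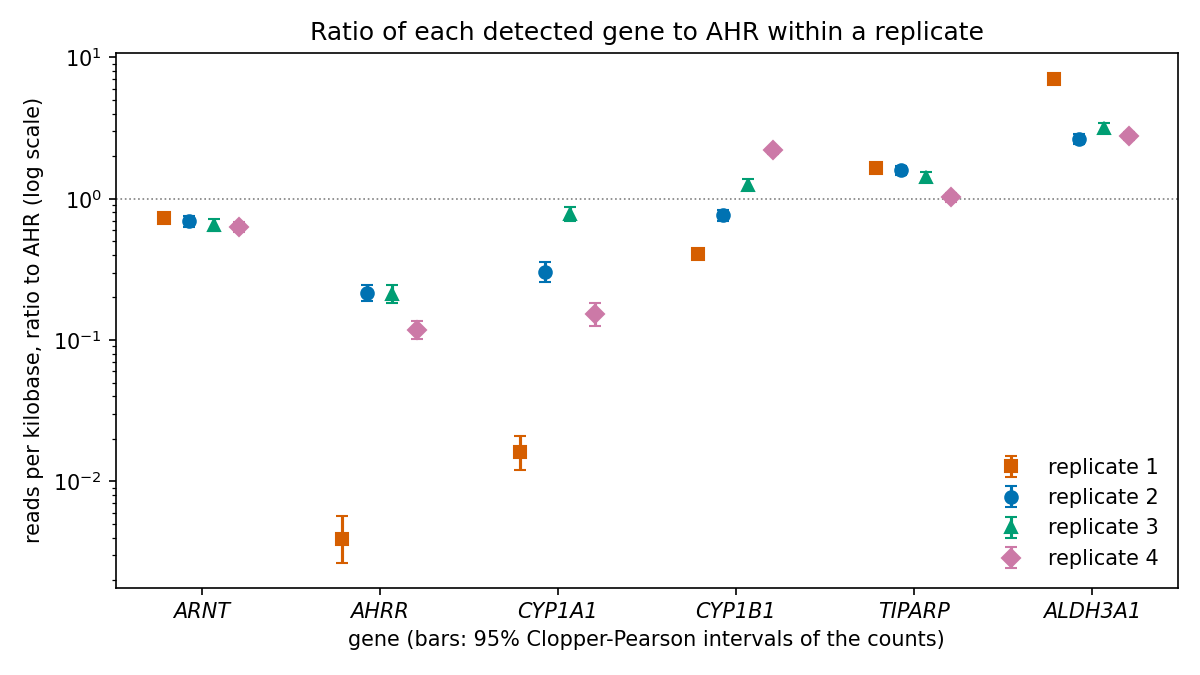
Reads per kilobase of each detected member divided by those of AHR in the same replicate, on a log axis, with markers for the 4 replicates and bars for 95% Clopper-Pearson intervals of the counts. ARNT stays between 0.631 and 0.734 and TIPARP between 1.02 and 1.64, while CYP1A1 runs from 0.0160 to 0.780 and AHRR from 0.00393 to 0.215.

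Along the order of mean TPM, 3 of the 6 neighbouring pairs of detected genes differed in the same direction in every replicate by a mean above the SD of the difference. These were ALDH3A1 above TIPARP (1.34 ± 0.58 on the log2(TPM + 1) scale, SD, n = 4), AHR above ARNT, and CYP1A1 above AHRR (0.76 ± 0.62). AHRR was 2.06 ± 1.22 above CYP1A2, a direction that the count of 0 fixes and that needs no test. Each of the 3 had p = 0.125 in the same exact permutation test, 0.219 after Benjamini-Hochberg adjustment over all 7 pairs, but the pairs were ordered by the same levels that the test compares. TIPARP and CYP1B1 differed by 0.52 ± 1.30 (SD, n = 4; exact test, p = 0.500), CYP1B1 and AHR by -0.048 ± 1.01 (p = 0.875) and ARNT and CYP1A1 by 1.80 ± 1.97 (p = 0.250), all within the spread between replicates. CYP1B1 exceeded AHR in replicates 3 and 4 and was below it in replicates 1 and 2. Its higher mean TPM came from replicate 4, without which it ranked below ARNT. Without length correction, by CPM, 2 of all 7 pairs met this rule, and CYP1A1 fell below AHRR in mean level.

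All 7 detected members varied more than 2-fold between the highest and the lowest replicate, as did 64.2% of the detected protein-coding genes. Without replicate 1 this held for 4 of 7, AHR (2.13-fold), ARNT (2.07-fold), CYP1A1 (2.40-fold) and CYP1B1 (3.79-fold), against 30.3% of the detected genes. The ratio to AHR varied more than 2-fold over the 4 replicates for 4 of the 6 other detected members, AHRR, CYP1A1, CYP1B1 and ALDH3A1, against 77.5% of detected genes. The range of AHRR over 4 replicates, 33.1-fold, stood at percentile 95.8 of the detected genes and that of CYP1A1 at percentile 94.3. Among replicates 2 to 4, AHRR was at percentile 52.3 and CYP1A1 at percentile 80.8, and CYP1B1 led the members at percentile 93.7.

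The members did not move as a block between libraries. In replicate 1, AHR, ARNT, TIPARP and ALDH3A1 were 0.80, 0.95, 1.11 and 2.12 above the mean of the other replicates on the log2(TPM + 1) scale, while AHRR, CYP1A1 and CYP1B1 were lower, at -2.38, -2.57 and -0.81. In TPM over all rows the first 3 of these turned negative, at -0.68, -0.52 and -0.39, and the other 4 kept their sign, with ALDH3A1 smaller at 0.59 and CYP1B1 farther off at -2.22. The base composition of the genes moved with replicate 1. Across 11889 detected genes with a GC content, its difference from the others had a Spearman correlation of -0.51 with GC content, a description across genes. The GC content was 38.2% for AHR, 42.8% for TIPARP, 44.1% for CYP1B1, 47.1% for ARNT, 53.3% for CYP1A1, 57.4% for AHRR and 61.0% for ALDH3A1. After subtracting the median difference of genes of like GC content, CYP1A1 was at -2.25, AHRR at -1.82 and CYP1B1 at -1.17. AHR was then at -0.074, TIPARP at 0.50, ARNT at 0.85 and ALDH3A1 at 2.77. AHR and ARNT, close to each other before this step, were thus farther apart after it. The part of base composition in these differences was not tested further.

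In the other libraries 2 members stood near the upper end of the range of genes with and without replicate 1. CYP1A1 in replicate 3 was 1.64 above the mean of the other 3 on the log2(TPM + 1) scale, at percentile 99.2 of the detected genes in that library, and 0.88 above the mean of replicates 2 and 4 alone, at percentile 98.9. CYP1B1 in replicate 4 was 1.93 above, at percentile 99.3, and 1.87 above the mean of replicates 2 and 3 alone. The same 2 genes reached the lower end elsewhere when replicate 1 was left out. CYP1B1 in replicate 2 was then at -0.95 (percentile 0.296), against percentile 6.40 with replicate 1. CYP1A1 in replicate 4 was then at -0.84 (percentile 2.93), against percentile 48.4 with replicate 1. Replicate 1 set the place of AHRR and ALDH3A1 in replicate 2. AHRR was 1.25 above the other 3 (percentile 95.7) and 0.51 above replicates 3 and 4 alone (percentile 83.4). ALDH3A1 was at -0.71 (percentile 3.58) against the other 3 and at -0.0075 (percentile 32.4) against replicates 3 and 4 alone. CYP1A1 was highest in replicate 3 and CYP1B1 in replicate 4, so these CYP1 genes did not peak in the same library.

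**Figure D3:**
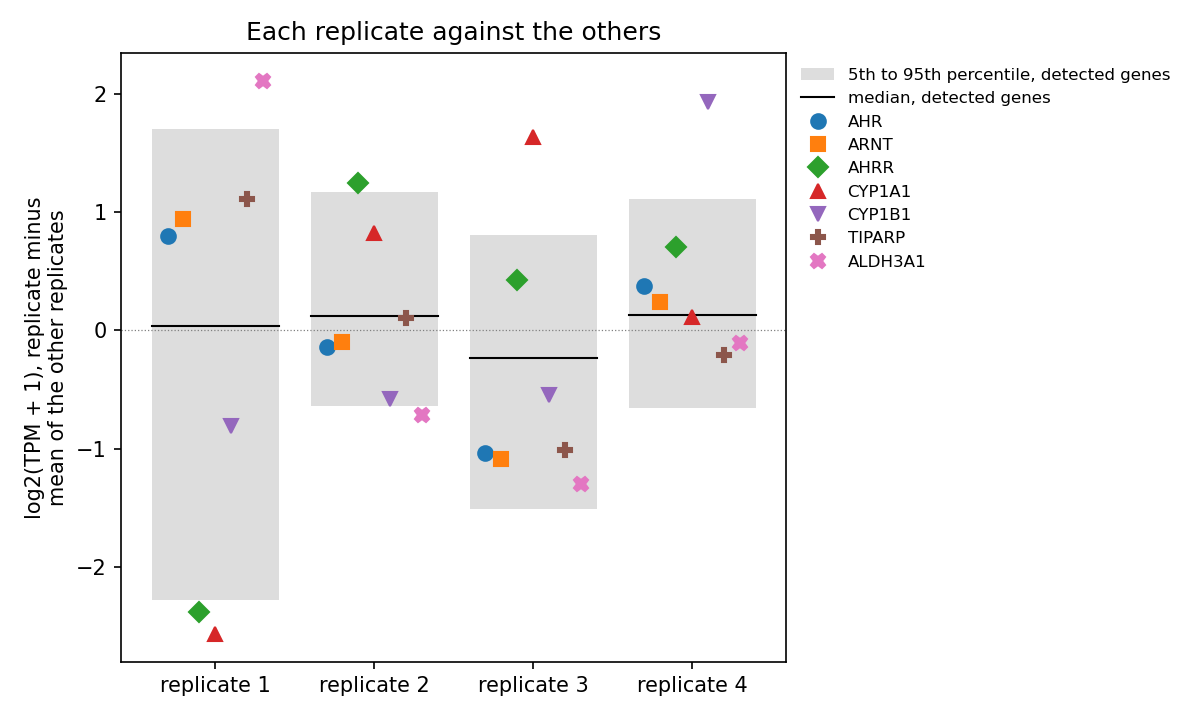
Difference of each replicate from the mean of the other replicates in log2(TPM + 1) for the 7 detected members (coloured markers), beside the 5th to 95th percentile (grey) and the median (line) of all detected genes. CYP1A1 and AHRR lie below the grey range in replicate 1 and ALDH3A1 above it, CYP1A1 lies above it in replicate 3 (1.64) and CYP1B1 above it in replicate 4 (1.93).

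The genes whose pattern over the 4 replicates was most like that of AHR, by the root mean square difference of centred log2(TPM + 1), were HAUS3 (0.0176), ATL1 (0.0201) and CDC27 (0.0217). ARNT, at 0.0779, was the 50th closest of 12164 genes. For CYP1A1 the closest were LBHD1 (0.0914), TNFRSF12A (0.128) and RRS1 (0.148), each of which was lowest in replicate 1 and highest in replicate 3. With 4 libraries such likeness is a description only.

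The wider pathway was read from 58 genes in 6 lists, of which 46 were detected, beside the 63.3% of all protein-coding rows given above. The same share stands beside the detected counts of each list below, and the genes were chosen by name. Among the detected, 36 varied more than 2-fold over 4 replicates and 20 over replicates 2 to 4, beside the 64.2% and 30.3% of all detected genes given above. All 5 chaperone genes of the cytosolic receptor complex were detected, with a median mean TPM of 275.5 against 24.5 for all detected genes, and 3 of the 5 varied more than 2-fold over 4 replicates but 0 in replicates 2 to 4. Replicate 1 held the lowest summed TPM of this list, 1678, against 2868 to 3466 elsewhere. HSP90AB1, the constitutive HSP90 that holds AHR in its ligand-binding form, was the highest at 1358 ± 404 TPM (SD, n = 4).

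Of 13 bHLH-PAS relatives, 8 were detected, with a median mean TPM of 9.87, and HIF3A, SIM1 and NPAS3 were at a count of 0 in each library. HIF1A, the hypoxia factor that shares ARNT, led with 79.3, 84.8, 31.9 and 106.4 TPM, so it was above AHR in every replicate. ARNTL, the clock partner of CLOCK, varied most among replicates 2 to 4 in this list, with 10.6, 7.67, 3.58 and 18.7 TPM, and NPAS1 was the lowest detected at 1.28 ± 0.317 (SD, n = 4). All 9 coregulators were detected, with a median of 28.6 TPM, and 6 of them varied more than 2-fold in replicates 2 to 4. SMARCA4, the ATPase of the SWI/SNF remodelling complex, was highest at 75.2 ± 39.8 TPM (SD, n = 4), and NCOA1, a p160 coactivator, lowest at 4.14 ± 1.49. NRIP1, a corepressor of nuclear receptors, had 23.2, 16.3, 4.03 and 16.1 TPM and was lowest in replicate 3.

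Among 12 other genes described as AHR targets, 10 were detected, with a median mean TPM of 147.4, and GSTA1 and GSTA2 were at a count of 0 throughout. SLC7A5, the amino acid transporter that brings tryptophan into the cell, led with 193.7, 2103, 1861 and 2130 TPM, so replicate 1 stood far below the others here too. EREG, an EGF receptor ligand, was the lowest detected at 3.04 ± 1.44 (SD, n = 4). SERPINB2, an inhibitor of plasminogen activators, had 166.0, 469.7, 222.7 and 87.6 TPM and thus ranged 5.36-fold, from replicate 2 to replicate 4. Of the 10 detected genes, 4 were highest in replicate 2, 4 in replicate 4, and 1 each in replicates 1 and 3. The same split of all detected genes is not given here, so this describes the list alone.

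Of 13 enzymes of tryptophan metabolism, which makes endogenous AHR ligands, 8 were detected, with a median of 9.82 TPM. GOT2, a mitochondrial aminotransferase that also accepts kynurenine, led at 270.1 ± 79.3 (SD, n = 4). IDO1, the inducible first enzyme of the kynurenine route, was the lowest detected, with 0.0852, 6.54, 3.63 and 1.81 TPM from 4, 84, 63 and 26 counts. All 6 relatives and electron donors of the enzymes were detected, with a median of 57.3 TPM. CYB5A, which passes electrons to microsomal cytochromes, was highest with 163.9, 165.8, 166.4 and 108.8 TPM. ALDH3B2 was lowest with 6.46, 0.895, 0.0414 and 0.749 TPM, from 422, 16, 1 and 15 counts. It was below 1 TPM in replicates 2 to 4, so it passed the detection limit through replicate 1 alone.

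**Figure D4:**
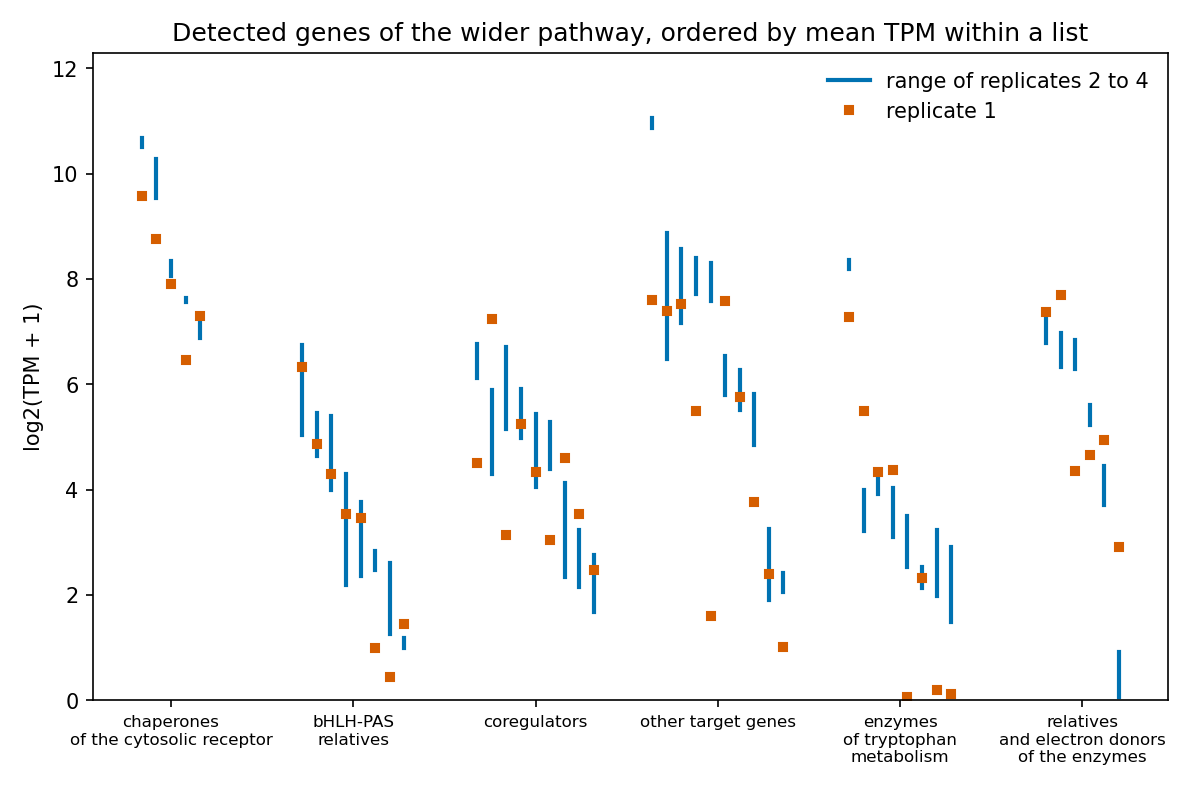
Level in log2(TPM + 1) of the 46 detected genes of the 6 lists, ordered by mean TPM within each list, with a blue line for the range of replicates 2 to 4 and an orange square for replicate 1. The lines of the 5 chaperone genes span less than 2-fold each, with replicate 1 outside several of them, and replicate 1 lies well below the line of SLC7A5, the first of the other target genes (193.7 TPM against 1861 to 2130).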

How the data were processed

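RNA-seq of 4 untreated HaCaT samples was analysed. The authors deposited raw counts of reads per gene for each sample, with the gene length, beside RPKM in replicates 1 and 2 and TPM in replicates 3 and 4. RPKM and TPM as deposited followed from the counts and lengths and were not compared with each other. The submitters' processing notes name HISAT2, HISAT, TopHat2, Bowtie2 and hg19. The counting program, annotation, strand setting and selection of RNA are not given in the sources used here. The labels give 12% serum.

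TPM was computed over protein-coding rows, on which a pseudocount of 1 was used for log2 values. The term detected stands for a mean TPM above 1. With 1 condition, no model of differential expression was fitted, and genes were compared within replicates by two-sided exact sign-flip permutation tests. GC content came from the longest coding transcript in GENCODE release 29, found for 97.7% of detected genes, in 20 bins. Promoter windows came from RefSeq (GRCh38.p14). The code was tested on simulated data.

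All 8 members were named. From the lists, the detected genes with the highest and lowest mean TPM and those varying over 4-fold in replicates 2 to 4 were named, and the 3 genes most like AHR and CYP1A1. Some genes that this rule names are not reported here. The members and lists were chosen with earlier results of these data known. Ratios to AHR, GC content, promoter windows and other gene lengths were chosen after the values were seen. Alternatives were another pseudocount (0.1), no length correction, TPM over all rows, median-of-ratios and upper quartile scaling, other limits of detection (0.1 TPM, or 10 counts in each replicate) and leaving out each replicate. The work used SciPy 1.17.1, pandas 2.3.3 and NumPy 2.4.6 in Python 3.11.15, with figures from matplotlib 3.10.9.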

Additional observations from a re-analysis of the deposited data

Results flagged for a closer look

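In 13 sets of 4 values, the TPM of the 7 detected members and the ratio to AHR of 6 of them, 2 held a replicate whose gap to its nearest neighbour, as a share of the range, passed the 95% critical value of Dixon for 4 values. Chance gives 0.65, or 1 in 20 sets, if values are normally distributed, and the sets share values. The gaps were taken on TPM and ratios without logarithms, and not on the log2 scale used elsewhere. CYP1B1 had 94.2 TPM in replicate 4 against 21.9 to 25.3 in the others, a gap of 0.953 of the range. In TPM over all rows this gap was 0.810, inside the limit, and it was 0.886 and 0.889 under median-of-ratios and upper quartile scaling, past it. The ratio of ALDH3A1 to AHR was 7.05 in replicate 1 against 2.65 to 3.16 in the others, a gap of 0.886 of the range. The level of ALDH3A1 itself, 378.5 TPM in replicate 1, had a gap of 0.824, just inside the limit. Under median-of-ratios and upper quartile scaling its gap was 0.880 and 0.878, past the limit, and in TPM over all rows replicate 1 (117.2) lay close to replicate 4 (110.4). The cause of either was not tested.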

How the results depend on the processing

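The differences of AHR from ARNT and of CYP1B1 from CYP1A1 kept their direction under every alternative run, at 0.26 to 0.89 and 1.84 to 3.25 on the log2 scale. Both were positive in every replicate, so only the runs that changed or dropped the gene length could have reversed them. The number of detected members was 7 throughout. The number of neighbouring pairs beyond the spread was 4 with that of AHRR and CYP1A2, between 4 and 6 when 1 replicate was left out, and 2 by CPM without length correction, where the cause was not tested. The number of members with a range over 2-fold was 7, between 4 and 7 when 1 replicate was left out (4 without replicate 1) and 6 in TPM over all rows. In the difference of replicate 1 from the others, AHR turned to -0.074 after centring on GC content and to -0.68 in TPM over all rows, where ARNT turned to -0.52 and TIPARP to -0.39. The other 73 alternative values of single genes kept their sign or moved by less than the SD between replicates. Leaving out 1 of 4 replicates cannot move a mean by as much as the SD, so those means could not fail this rule. The mean of ALDH3A1 rests on replicate 1 (89.4 TPM without it), that of CYP1B1 on replicate 4 (24.0 without it), and that of CYP1A1 runs from 5.74 without replicate 3 to 10.7 without replicate 1. AHRR and CYP1A1 had the fewest counts in replicate 1, with 29 and 56, against 130 to 377 in replicates 2 to 4. Relative counting error was therefore largest for them in replicate 1, although that library had the most total counts. No paired analysis was possible because the samples form 1 group. Gene lengths from GENCODE, centring on GC content, the scalings of replicate 1 and of the gaps, and the differences among replicates 2 to 4 alone were added after seeing the data.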
